A study of Saccharomyces cerevisiae with 18 samples.

Results

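The factors described here are 55 yeast genes for the assembly of ribosomes, of the 5656 genes that had a probe set with 1 gene name. They were taken from a list of nucleolar and subunit assembly factors by gene symbol, with no threshold on a measured value, and all 55 were found on the array, with 74 of the 6504 probe sets. Of the 55 genes, 50 had 1 probe set and 5 had several (NOP58, UTP22, UTP20, DBP2 and NOG2), for which the brightest probe set was used.

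Ribosomes are built in the nucleolus, where RNA polymerase I makes a long precursor of the ribosomal RNAs. Small nucleolar ribonucleoproteins (snoRNPs) modify and fold this precursor, a large particle called the small subunit processome assembles on its first part, and separate factors assemble the large subunit before both are exported. In yeast the genes for these factors are known to be expressed together and to be lowered when growth slows or cells are stressed, which makes them a common readout of growth state.

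RNA had been taken from 6 strains, with 3 arrays each (Affymetrix Yeast Genome S98), in a study of imbalance in base excision repair, the pathway in which the glycosylase Mag removes damaged bases and the endonuclease Apn1 cuts the abasic site left behind. The strains were WT/pMAG (vector pYES-MAG), Δapn1 (apn1-1::HIS3 with empty vector pYES), Δapn1/pMAG (apn1-1::HIS3 with pYES-MAG), Δapn1/pAPN1 (apn1-1::HIS3 with pYepAPN1-2A and pYES), Δapn1/pMAG/pAPN1 (apn1-1::HIS3 with pYepAPN1-2A and pYES-MAG) and wild type with pYES. All derive from the haploid parent BGY111 (mating type a, with mutations in his3, leu2, ura3, trp1 and can1, able to use galactose) and were grown in galactose medium without uracil to mid-log phase, so that every strain carried pYES or pYES-MAG and none was free of galactose or of a plasmid. No DNA-damaging agent was added. Values are log2 signals, and differences are strain minus wild type on that scale unless another pair is named.

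Strain names are those of the labels, and the genes they name varied widely. MAG1 read 6.14, 1.48 and 6.91 on the arrays labelled WT/pMAG, 7.17, 2.88 and 1.82 on those labelled Δapn1/pMAG and 3.80, 2.83 and 1.82 on those labelled Δapn1/pMAG/pAPN1, against 0.89 to 1.11 in wild type. Every pMAG array was above wild type, but 6 of the 9 read under 4. APN1 read 2.98, 2.81 and 3.15 on the arrays labelled Δapn1 and 3.97, 3.64 and 4.38 on those labelled Δapn1/pMAG. In wild type it read 1.14, 1.26 and 1.88, so its signal was higher than in wild type, not lower, where the label gives a null allele. In WT/pMAG, whose label gives no null allele, it read 1.67, 2.85 and 2.01, and replicate 2 lay within the range of Δapn1. Where the HIS3 insertion lies relative to the probes is not given in the sources used here, and the probe set does not check these labels. With the APN1 plasmid it read 7.27 to 7.96 in Δapn1/pAPN1 and 4.57, 7.48 and 7.26 in Δapn1/pMAG/pAPN1. HIS3, the marker of the disruption, read 3.25 to 4.16 in wild type and 4.39 to 4.76 in WT/pMAG. In the strains labelled Δapn1, with or without plasmids, it read 4.21 to 5.53, which overlapped WT/pMAG. On replicate 1 of Δapn1/pMAG the 3′ signal of ACT1 exceeded its 5′ signal by 7.78, a measure of RNA integrity or labelling. The mean signal of 69 small RNA probe sets placed 7 arrays at 2.07 to 2.58 and 11 arrays at 1.73 to 1.90. The higher side held replicates 2 and 3 of wild type, 1 and 3 of WT/pMAG, 2 and 3 of Δapn1 and 1 of Δapn1/pMAG, and no array of the strains with pAPN1. Descriptions of replicates 2 and 3 of Δapn1 carry other gene numbers than their source labels, which name apn1 and were followed.

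Each array reads the RNA of a whole culture, so fewer cells that express a gene and less RNA per cell cannot be told apart. The factors moved together from array to array, and little of this movement lay between strains. Each gene was centred on its mean over the 18 arrays, and the median of the 55 factors was then read on each array. It was highest on replicate 2 of Δapn1/pMAG (0.58), replicate 1 of Δapn1/pMAG/pAPN1 (0.47) and replicate 1 of Δapn1 (0.37). It was lowest on replicate 2 of Δapn1/pMAG/pAPN1 (−0.35), replicate 2 of wild type (−0.27) and replicates 1 of Δapn1/pMAG and 3 of Δapn1 (−0.23 each). High and low arrays thus came from the same strains. On the 2 arrays with the highest medians all 55 factors lay above their own mean, while on replicate 3 of Δapn1 only 7 did.

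By strain, the medians averaged −0.10 ± 0.09 in WT/pMAG, −0.01 ± 0.33 in Δapn1, 0.13 ± 0.42 in Δapn1/pMAG, 0.03 ± 0.05 in Δapn1/pAPN1, 0.10 ± 0.42 in Δapn1/pMAG/pAPN1 and −0.09 ± 0.24 in wild type (SD, n = 3 each). The strain means spanned 0.23, the pooled SD between arrays of 1 strain was 0.30, and 11.3% of the variance of this median lay between strains. The spread was narrow in WT/pMAG and Δapn1/pAPN1, whose arrays covered 0.16 and 0.10, against 0.82, 0.83, 0.60 and 0.45 in Δapn1/pMAG, Δapn1/pMAG/pAPN1, Δapn1 and wild type. A strain's share of the variance had a median of 21.5% over the factors and 31.8% over all genes.

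**Figure D1:**
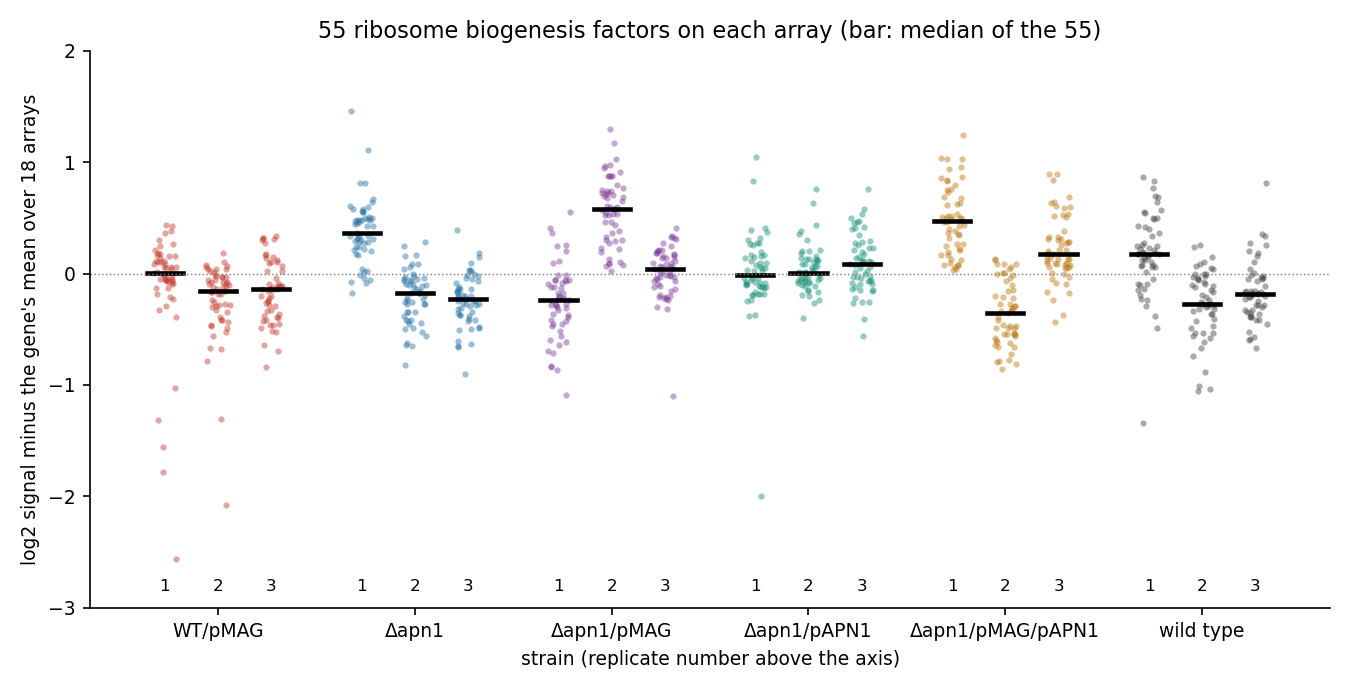
Log2 signal of each of the 55 factors minus its mean over 18 arrays (points) and their median (bar) on every array, grouped by strain along the horizontal axis. The bar lies highest on replicate 2 of Δapn1/pMAG (0.58) and lowest on replicate 2 of Δapn1/pMAG/pAPN1 (−0.35), and single points far below the rest belong mainly to WT/pMAG.

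The pattern was shared by both subunits' factors. The median of the GTPases of the large subunit precursor (NUG1, NOG1, NOG2) was 0.92 on replicate 2 and −0.37 on replicate 1 of Δapn1/pMAG. The Nop7-Erb1-Ytm1 complex, needed for early processing of the 60S precursor, read 0.60 and −0.70 on the same arrays, and the other factors of the 40S subunit 0.63 and −0.28. The UTP-A complex, the first part of the processome to bind the precursor, departed from the rest on replicate 1 of Δapn1/pMAG, at 0.16. The box H/ACA snoRNP departed in wild type, where its median was −0.14, 0.23 and 0.20 on replicates 1, 2 and 3 while that of all factors was 0.18, −0.27 and −0.18. Such departures were not limited to these, and the box C/D snoRNP read 0.16 on replicate 3 of wild type. Box H/ACA read 0.17 on replicate 2 of Δapn1 and UTP-A −0.14 on replicate 3 of Δapn1/pMAG, against −0.18 and 0.04 for all factors.

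**Figure D2:**
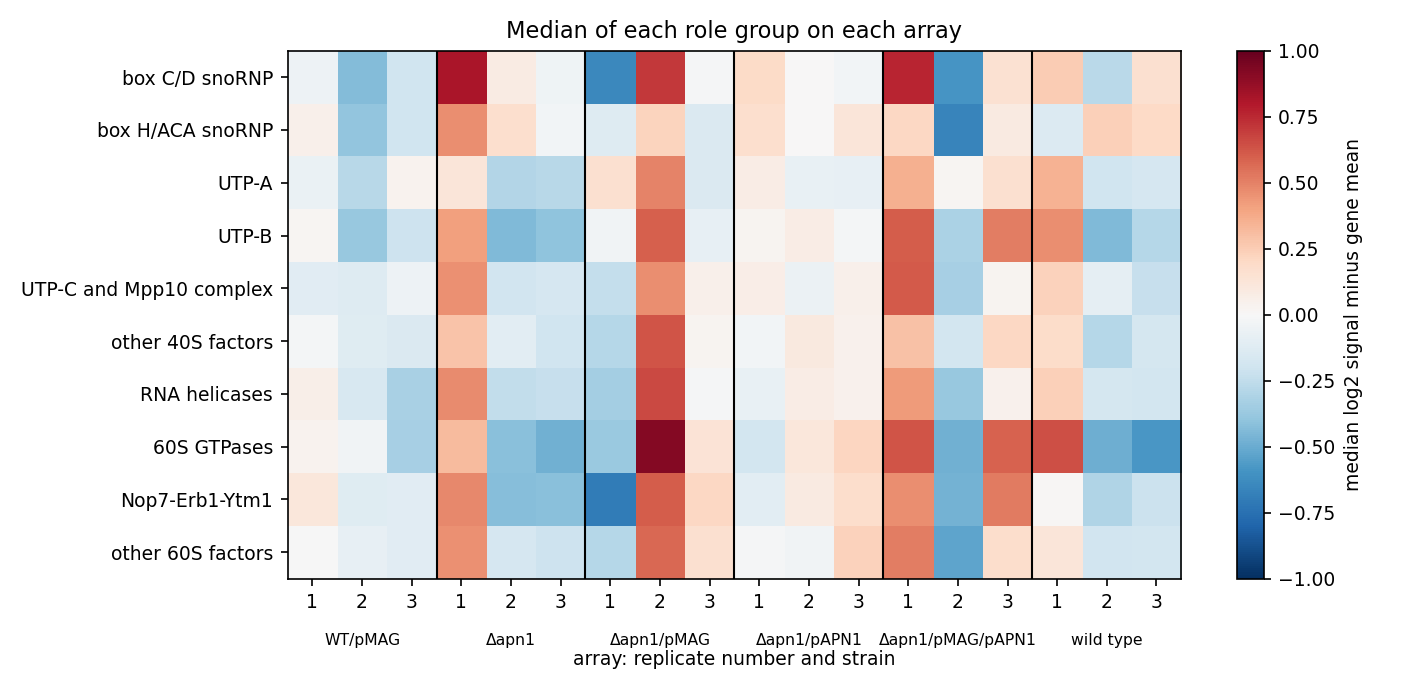
Median log2 signal minus gene mean of the 10 role groups (rows) on the 18 arrays (columns, by strain and replicate), red for above and blue for below the gene mean. Columns of 1 colour show arrays on which nearly all groups were high or low, such as replicates 1 and 2 of Δapn1/pMAG/pAPN1.

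Across arrays, with strain means removed, the correlation of pairs among the 55 factors had a median r of 0.58, against 0.03 for pairs among all genes. It exceeded 0.5 in 59.9% of the 1485 pairs of factors and in 9.55% of all gene pairs. Without removal of strain means the medians were 0.51 and 0.03. These values describe 18 arrays that all pairs share, and they stood at 0.57 for the factors without replicate 1 of Δapn1/pMAG and at 0.62 among the 46 factors whose mean signal reached the lowest array median. Pairs within the 60S GTPases (0.83), Nop7-Erb1-Ytm1 (0.80) and the RNA helicases (0.74) had the highest medians by role. Those within the box C/D snoRNP (0.45) and the group of UTP22, MPP10, IMP3 and IMP4 (0.35) had the lowest.

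**Figure D3:**
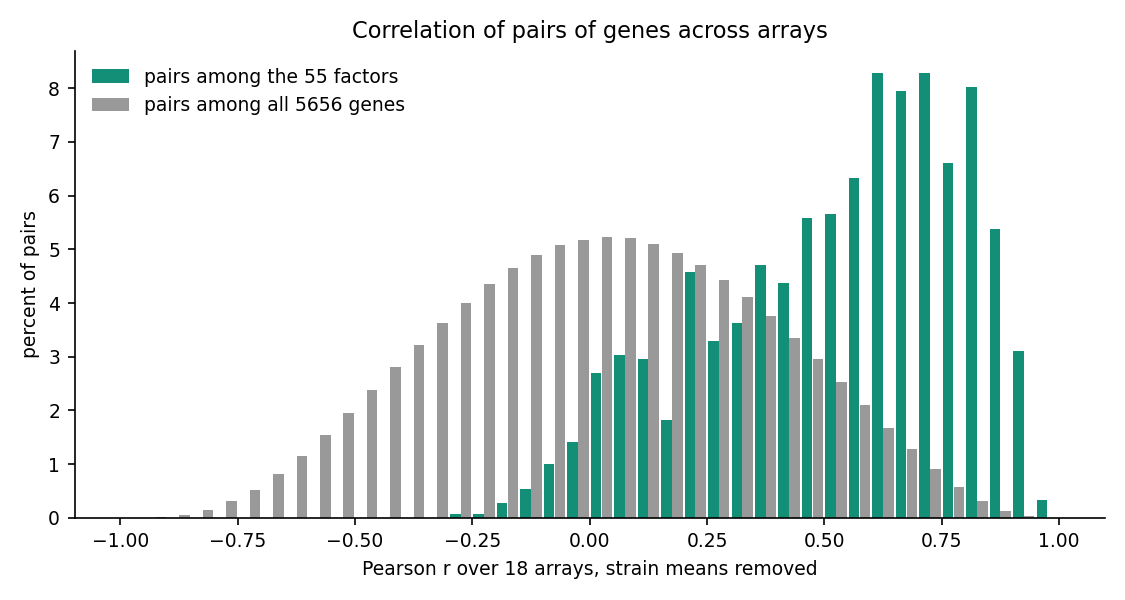
Percent of gene pairs in each bin of Pearson r over the 18 arrays after removal of strain means, for the 55 factors (green) and for all genes (grey). The factors' pairs centre on a median of 0.58 and the pairs of all genes on 0.03.

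The 3 factors most like the median of the others over the 18 arrays were IMP4 (r = 0.95), an RNA-binding protein of the Mpp10 complex, UTP21 (0.94), a WD-repeat subunit of UTP-B, and RRP1 (0.91), a factor of the 60S precursor. IMP4 read 2.86, 3.82 and 3.09 in Δapn1/pMAG, 4.02, 2.61 and 3.35 in Δapn1/pMAG/pAPN1, and 3.36, 2.46 and 2.80 in wild type. The 3 groups overlapped throughout, and the high and low arrays of IMP4 were those of the whole group. The least alike were UTP7 (0.22), MPP10 (0.12) and MAK16 (0.09). UTP7 and MAK16, a processome component and a factor of the 60S precursor, had mean signals of 1.20 and 0.90, below the lowest array median of 1.63, as did 7 other factors (UTP4, NOP14, RRP9, DRS1, MAK5, NOP4 and NOP12).

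The r values of single factors above kept the strain means and are not directly comparable with those that follow. Genes outside the 55 were compared with the median of the 55 after strain means were removed from both. Among the 96 other assembly factors measured, 29 (30.2%) were in the 100 genes most like it, with a median r of 0.76, against 0.09 over all genes other than the 55. They were led by PNO1 (0.98), which acts in maturation of the 40S subunit, and RSA3 (0.95), a 60S assembly factor. RPC31, a subunit of RNA polymerase III, stood at 0.96, and RPC19, shared by polymerases I and III, at 0.94. Ribosomal protein genes were less like it, with a median r of 0.36 and 1 of 80 in the 100. At the other end were COS8 (−0.91), TMA17 (−0.88), a chaperone of proteasome assembly, GPX1 (−0.87), a glutathione peroxidase, SIP2 (−0.86), a subunit of the Snf1 kinase complex, and STF2 (−0.86).

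The small RNA signal moved with the factors' median, with r = −0.58 and Spearman's rho = −0.64 over the 18 arrays. The median was above 0 on 1 of the 7 arrays of the higher side and on 8 of the 11 of the lower side. Within strains that had both, the factors were higher on the lower side by a median of 0.62 in Δapn1 (52 of 55 genes), 0.57 in Δapn1/pMAG (49) and 0.41 in wild type (47), and in WT/pMAG the median was −0.07 (22 genes higher). Within the 2 sides r was −0.43 (n = 7) and −0.22 (n = 11). The excess of ACT1 3′ over 5′ signal had r = −0.32 and rho = −0.68. The part of either in the movement of the factors was not tested.

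Among the 6 strains, no factor differed at an adjusted p under 0.05 by limma's moderated F test, in which 0.442% of all genes were called. At an unadjusted p under 0.05 there were 2 factors, against 10.2% of all genes. These were NOP12 (adjusted p = 0.348) and NOP56 (0.451), followed by RLP7 (0.544), UTP20 (0.592), UTP18 (0.688) and UTP4 (0.697). Each strain was next set against the same 3 wild type arrays at the study's thresholds, which ask for at least a 1.5-fold change together with p under 0.05 before adjustment, and "past the thresholds" refers to these. No factor was past an adjusted p of 0.05 in any of the 13 comparisons made with limma. Over all genes this share was 0.106% in WT/pMAG, 0% in Δapn1, 0.106% in Δapn1/pMAG, 0.0177% in Δapn1/pAPN1, 0.0177% in Δapn1/pMAG/pAPN1 and 1.38% for the mean pMAG effect described further on. In the other 7 comparisons it was 0.124% for Δapn1/pMAG against Δapn1, 0.0177% for Δapn1/pAPN1 against Δapn1, 0.0354% for Δapn1/pMAG/pAPN1 against WT/pMAG and 0% in the remaining 4.

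In the arrays labelled WT/pMAG, set against wild type to ask for the effect of the pMAG plasmid alone, 1 factor was lower past the thresholds and none was higher, where 6.47% of all genes were called. This was NOP56, a core protein of the box C/D snoRNPs that guide methylation of rRNA. NOP56 read 0.43, 0.91 and 2.79 in WT/pMAG, against 3.86, 2.72 and 3.80 in wild type. Its first 2 WT/pMAG arrays were below every array of the other 5 strains, whose lowest value was 2.38, while the other one lay within their range and just above wild type replicate 2. MAG1 on these 3 arrays was 6.14, 1.48 and 6.91, in the same order. Of the 3, the array with MAG1 at 6.14 had the lowest NOP56 and the array with MAG1 at 6.91 the highest. A relation of NOP56 to MAG1 was not tested. The means were 1.37 ± 1.25 in WT/pMAG and 3.46 ± 0.64 in wild type (SD, n = 3 each), with a log2 difference of −2.08 (standard error 0.61, adjusted p = 0.232 by limma). Its 2 low values lie below the lowest array median of 1.63, close to background, which limits what the size of this difference says. With any 1 array left out the difference was −2.79 to −1.61, past the thresholds each time, and −1.85 without replicate 2 of WT/pMAG.

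The partners of NOP56 in the particle were not past the thresholds. NOP58, the second core protein with a related fold, read 7.22, 7.31 and 6.78 in WT/pMAG, against 7.53, 6.94 and 7.23 in wild type. NOP1, the methyltransferase of the particle (fibrillarin), read 5.71, 5.28 and 5.74 in WT/pMAG, against 5.23, 5.79 and 5.88 in wild type. The groups overlapped for both. Their log2 differences were −0.12 for NOP58 (95% interval −0.90 to 0.65) and −0.06 for NOP1 (−0.75 to 0.64). Of 3 further probe sets for NOP58, 1 was past the thresholds in WT/pMAG (−1.11) and 2 were not (−0.07 and −0.05). The gene next to NOP56, PWP1, another assembly factor, was also lower past the thresholds in WT/pMAG (−1.20, standard error 0.55, adjusted p = 0.470 by limma). The deviations of these 2 genes from strain means correlated with r = 0.78 over 18 arrays. Over all pairs of a factor with another assembly factor, this r had a median of 0.56 and an upper quartile of 0.73.

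Over all 55 factors the differences in WT/pMAG lay on both sides of 0. The median difference of the 55 was −0.03, against 0.00 over all genes, with 24 factors positive and 31 negative. It was 0.13 over the arrays of the higher side of the small RNA signal (2 of each strain) and −0.30 over those of the lower side (1 of each), while NOP56 was lower on both, by −1.65 and −2.95. The 80 ribosomal protein genes measured had a median of −0.28, with 73 negative and 3 past the thresholds, all lower. EBP2, a factor of the 60S precursor, read 0.46, 1.82 and 2.33 in WT/pMAG, against 2.73, 1.97 and 2.24 in wild type, with the groups overlapping. MPP10, the protein that names the complex with IMP3 and IMP4, read 0.37, 1.72 and 1.82 in WT/pMAG, against 1.87, 1.76 and 1.95 in wild type. Both genes were low on replicate 1 of WT/pMAG, as was DIP2 of UTP-B (0.71, against 1.71 and 2.58 on the other WT/pMAG arrays). On that array 81 genes (1.43%) lay at least 1 below every other array, against 0 to 50 on each of the other 17. Of the 55 factors only EBP2 was among the 81, and MPP10 and DIP2 were not. Without replicate 3 of WT/pMAG, 5 factors were lower past the thresholds, where 6.28% of all genes were called, namely NOP56, UTP10, DIP2, MPP10 and EBP2.

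UTP22, the UTP-C subunit, has 6 probe sets, of which the brightest read 2.36, 1.87 and 2.71 in WT/pMAG, against 2.96, 2.46 and 2.15 in wild type. A second, dimmer one was past the thresholds (−1.03), and the remaining 4 had differences of −0.38 to −0.11. The groups of the brightest overlapped, with a log2 difference of −0.21.

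**Figure D4:**
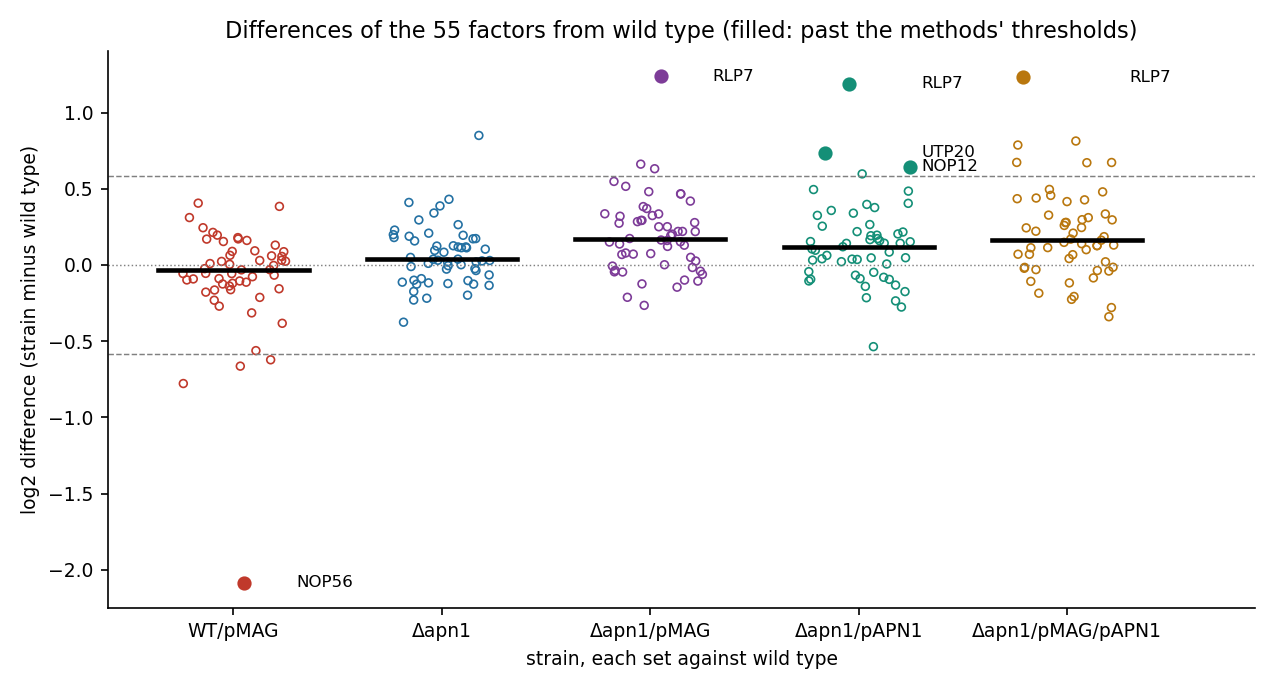
Log2 difference from wild type of the 55 factors in each of the 5 other strains, with the median as a bar and 1.5-fold as dashed lines. Filled, named points are past the thresholds: NOP56 in WT/pMAG (−2.08), RLP7 in the 3 strains labelled Δapn1 with pMAG, pAPN1 or both (1.19 to 1.24), and UTP20 and NOP12 in Δapn1/pAPN1.

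In the arrays labelled Δapn1, on which APN1 signal was not lowered, no factor was past the thresholds by limma or by the test without moderation of the variance, where 0.442% of all genes were. At an unadjusted p under 0.05 there were 0 factors, against 1.13% of all genes. The median difference was 0.04, against −0.01 over all genes, with 35 factors positive and 20 negative, and −0.02 and 0.21 within the higher and the lower side of the small RNA signal. The largest was 0.85 for RLP7 (standard error 0.44, adjusted p = 1.00), a relative of ribosomal protein L7 needed for 27S precursor processing, with 4.49, 3.67 and 3.73 in Δapn1 and 2.59, 3.27 and 3.48 in wild type. All 3 Δapn1 arrays were above all wild type arrays, but RLP7 was named for its small p here, so this adds no support. How many of all genes separate in this way was not counted, here or in the comparisons below. In a fit of these strains alone RLP7 was past the thresholds, with and without the replicate number as a block (1 factor in each, where 0.583% and 0.336% of all genes were called).

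In Δapn1/pMAG, 1 factor was higher past the thresholds and none was lower, where 3.66% of all genes were called. RLP7 read 3.85, 4.96 and 4.25 in Δapn1/pMAG, all above the 2.59, 3.27 and 3.48 of wild type. The log2 difference was 1.24 (standard error 0.44, adjusted p = 0.593 by limma), and it was not past the thresholds without replicate 2 of Δapn1/pMAG (0.94) or replicate 1 of wild type (0.98). The median of the 55 factors was 0.17, against 0.02 over all genes, with 42 positive. Within the lower side of the small RNA signal it was 0.09 (36 positive, 2 arrays against 1) and within the higher side −0.10 (22 positive, 1 against 2), and RLP7 was 2.01 and 0.47. Without replicate 1 of Δapn1/pMAG, the array with the high ACT1 difference, the median was 0.40 and 6 factors were past the thresholds, where 5.94% of all genes were, all higher (RLP7, RRP5, NUG1, NOP12, NOP16 and SDA1). The 96 other assembly factors had a median of 0.20, with 82 positive and 0 past the thresholds.

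In Δapn1/pAPN1, with Apn1 supplied from a plasmid, 3 factors were higher past the thresholds and none was lower, where 3.59% of all genes were called. RLP7 read 4.32, 3.89 and 4.69 in this strain (log2 difference 1.19, standard error 0.44, adjusted p = 0.604 by limma). NOP12, an RNA-binding protein of the 60S precursor, read 1.55, 1.42 and 1.87, against 1.00, 0.82 and 1.08 in wild type, a difference of 0.64 (standard error 0.16, adjusted p = 0.276). UTP20, a large helical-repeat protein of the processome, read 2.29, 2.52 and 2.23, against 1.501, 1.63 and 1.70 in wild type, a difference of 0.74 (standard error 0.26, adjusted p = 0.600). For all 3 genes every array of Δapn1/pAPN1 was above every wild type array. The genes were picked by this same comparison, so the separation adds no support. RLP7 was not past the thresholds without replicate 3 of Δapn1/pAPN1 (0.99) or replicate 1 of wild type (0.93), and NOP12 without replicate 3 of Δapn1/pAPN1 (0.52) or replicate 2 of wild type (0.57).

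Of these, NOP12 was dim, with all 18 values between 0.82 and 1.87 and a mean of 1.29. UTP20 has 9 further probe sets, none past the thresholds in this strain, and over the mean of its 10 probe sets the difference was 0.05. NOP12 also lay above all wild type arrays in Δapn1 (0.23), Δapn1/pMAG (0.48) and Δapn1/pMAG/pAPN1 (0.44), below 1.5-fold. These comparisons share the wild type arrays, and NOP12 was named for its small F p. All 3 arrays of Δapn1/pAPN1 were on the lower side of the small RNA signal and 1 of wild type. With that split as a block, 0 of the 3 factors were past the thresholds, at 0.91 for RLP7, 0.52 for NOP12 and 0.49 for UTP20, where 2.67% of all genes were called. Over the arrays of the lower side alone, 3 of Δapn1/pAPN1 and 1 of wild type, the differences were 1.71 for RLP7, 0.61 for NOP12 and 0.85 for UTP20. The median difference of the 55 factors was 0.12 (40 positive), against 0.03 over all genes. Over the lower side it was −0.13 (15 positive).

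In Δapn1/pMAG/pAPN1, 1 factor was higher past the thresholds and none was lower, where 3.75% of all genes were called. RLP7 read 4.89, 3.31 and 4.83 in this strain, of which replicate 2 lay within the wild type range (log2 difference 1.23, standard error 0.44, adjusted p = 0.512 by limma). Over the lower side of the small RNA signal the difference was 1.75. APN1 and LEU2 were lower on replicate 1 of this strain than on its replicates 2 and 3. RLP7 was not past the thresholds without replicate 1 (0.96) or 3 (0.99) of this strain or replicate 1 of wild type (0.97). The count of factors past them was 7 without replicate 2 of this strain (5.87% of all genes called), 0 without replicate 1 or 3 (3.75% and 2.74%), and 5 without wild type replicate 1 (7.07%). UTP18, a WD-repeat subunit of UTP-B, read 3.68, 2.33 and 3.49, against 3.07, 2.09 and 2.32 in wild type, with a difference of 0.67 that was not past the thresholds. The median of the 55 factors was 0.16 (41 positive), against 0.04 over all genes, and −0.09 over the arrays of the lower side of the small RNA signal (17 positive, with 3 arrays against 1).

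**Figure D5:**
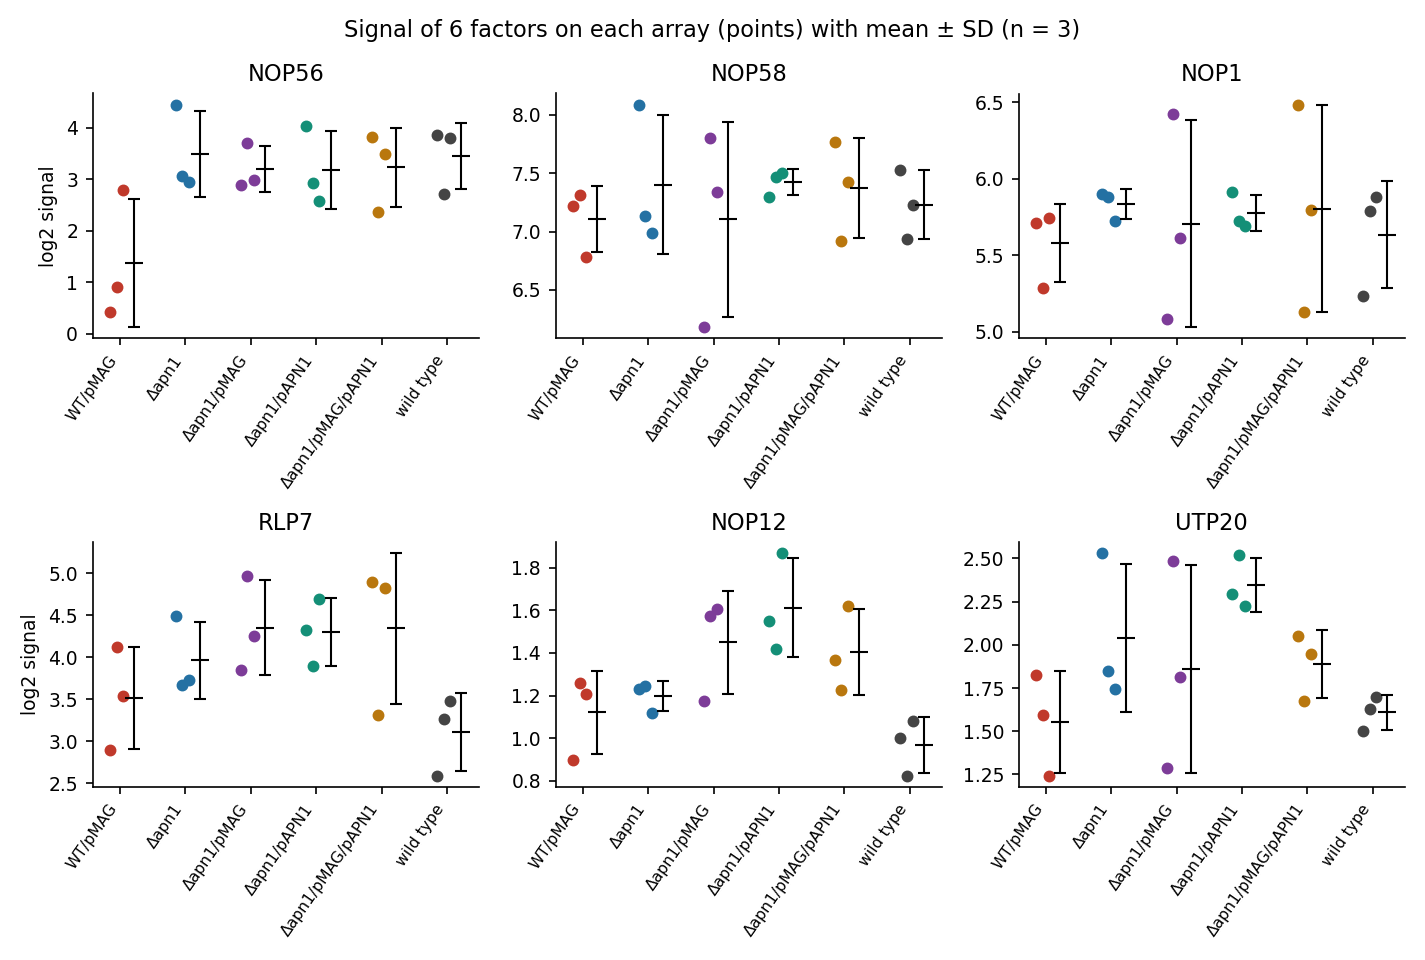
Log2 signal of 6 factors on the 3 arrays of each strain (points) with mean ± SD; the vertical scales differ and do not start at 0. NOP56 is low on 2 arrays of WT/pMAG (0.43 and 0.91), while NOP58 and NOP1 of the same particle overlap between all strains, and RLP7 is lowest in wild type (2.59 to 3.48).

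RLP7 was the one factor past the thresholds in more than 1 strain against wild type. The share of all genes past them in more than 1 strain was not counted. Its mean was 3.52 ± 0.61 in WT/pMAG, 3.96 ± 0.46 in Δapn1, 4.35 ± 0.56 in Δapn1/pMAG, 4.30 ± 0.40 in Δapn1/pAPN1, 4.35 ± 0.89 in Δapn1/pMAG/pAPN1 and 3.11 ± 0.46 in wild type (SD, n = 3 each). These comparisons share the wild type arrays, of which replicate 1 was the lowest of all 18 for RLP7. Between Δapn1/pMAG and Δapn1 the difference was 0.39 (95% interval −0.54 to 1.32), and between Δapn1/pAPN1 and Δapn1 it was 0.34 (−0.60 to 1.27). RRP40, an exosome subunit, was also higher past the thresholds in all 4 null strains, by 0.75 to 0.91 (adjusted p from 0.421 to 1.00 by limma). No other exosome gene of the 14 measured was. The share of all genes past them was 0.442% in Δapn1, 3.66% in Δapn1/pMAG, 3.59% in Δapn1/pAPN1 and 3.75% in Δapn1/pMAG/pAPN1. The same wild type arrays enter each of these comparisons.

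The mean effect of pMAG was taken over 3 pairs that share no array, WT/pMAG against wild type, Δapn1/pMAG against Δapn1, and Δapn1/pMAG/pAPN1 against Δapn1/pAPN1. In this mean 1 factor was lower past the thresholds and none was higher, where 3.66% of all genes were called. NOP56 had a mean effect of −0.78 (standard error 0.35, adjusted p = 0.304 by limma), made of −2.08, −0.30 and 0.05 in the 3 pairs. It was past the thresholds in 9 of the 18 fits that left out 1 array, over which it ran from −1.01 to −0.62, and was not past them in the other 9, without moderation of the variance (−0.78), or without replicates 1 of Δapn1/pMAG and Δapn1/pMAG/pAPN1 (−0.83). The pMAG effect on NOP56 in Δapn1 exceeded that in wild type by 1.79 (95% interval −0.04 to 3.61, adjusted p = 0.998), which was not past the thresholds. In that comparison 0 of the 55 factors were past them by limma, against 1.94% of all genes, and 0 were under an unadjusted p of 0.05, against 3.11%. The median of the 55 mean effects was 0.05, against 0.01 over all genes and −0.16 over ribosomal protein genes, of which 71 of 80 were negative.

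Of the other pairs of strains, Δapn1/pMAG against WT/pMAG had 2 factors past the thresholds, both higher, where 3.16% of all genes were called. NOP56 differed by 1.82 (standard error 0.61, adjusted p = 0.751 by limma) and EBP2 by 0.91 (0.40, adjusted p = 0.772). The 3 arrays of Δapn1/pMAG were above those of WT/pMAG for both genes, which this same comparison had picked. For EBP2 the margin was narrow, with 2.338 the lowest in Δapn1/pMAG and 2.333 the highest in WT/pMAG, whose replicate 1 read 0.46. In Δapn1/pMAG/pAPN1 against WT/pMAG, NOP56 alone was past them (1.86, adjusted p = 0.395, with 5.43% of all genes called). Both NOP56 differences rest on the low NOP56 values of WT/pMAG already given. In 4 comparisons between null strains that differ by 1 plasmid no factor was past the thresholds by limma. The share of all genes past them was 4.1% for Δapn1/pMAG against Δapn1, 2.63% for Δapn1/pMAG/pAPN1 against Δapn1/pAPN1, 1.75% for Δapn1/pAPN1 against Δapn1 and 1.77% for Δapn1/pMAG/pAPN1 against Δapn1/pMAG. At an unadjusted p under 0.05 the same 4 had 1, 0, 1 and 0 factors, against 8.57%, 5.66%, 4.93% and 4.1% of all genes.

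The brightest factors of the 40S, box H/ACA and UTP-A groups, and of the 60S factors outside the GTPases and the Nop7-Erb1-Ytm1 complex, had values in each strain that overlapped those of wild type. NSR1, the yeast relative of nucleolin, read 6.85, 6.31 and 7.25 in WT/pMAG, 7.27, 6.88 and 6.96 in Δapn1, 6.55, 7.77 and 6.74 in Δapn1/pMAG, 6.81, 7.04 and 7.09 in Δapn1/pAPN1, 7.60, 6.58 and 7.28 in Δapn1/pMAG/pAPN1, and 7.15, 6.65 and 6.77 in wild type. NHP2, the brightest factor of the box H/ACA snoRNP that guides pseudouridine formation, had means between 6.86 and 7.33 in the other 5 strains and of 7.20 in wild type. UTP8 of UTP-A had means between 3.82 and 4.20 in the other strains and 3.91 in wild type, and RRP8, a methyltransferase of the large rRNA, between 4.28 and 4.59 and 4.42 in wild type. None of these 4 was past the thresholds in any strain against wild type.

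The brightest helicase, GTPase and Nop7-Erb1-Ytm1 factor each read highest on replicate 2 of Δapn1/pMAG. DBP2, a DEAD-box RNA helicase and the brightest of the 6 helicases listed, read 5.33, 7.12 and 5.62 in Δapn1/pMAG and 6.97, 5.74 and 6.48 in Δapn1/pMAG/pAPN1, against 6.71, 5.41 and 5.75 in wild type. NOG2, a GTPase that stays on the 60S precursor until shortly before export, read 4.30, 5.55 and 4.81 in Δapn1/pMAG, 5.54, 4.75 and 5.26 in Δapn1/pMAG/pAPN1, and 5.32, 3.79 and 4.005 in wild type. ERB1, the scaffold of its complex with Nop7 and Ytm1, read 4.61, 5.34 and 4.94 in Δapn1/pMAG, 5.20, 4.01 and 5.25 in Δapn1/pMAG/pAPN1, and 4.91, 4.20 and 4.38 in wild type. For each of the 3 genes the arrays overlapped between the strains. ENP1, a 40S factor that stays on the particle into the cytoplasm, read 0.65 on replicate 1 of Δapn1/pAPN1, against 3.02 and 2.48 on the others, with 3.33, 1.61 and 2.82 in wild type.

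The lists beside the 55 gave small counts as well. Of the 96 other assembly factors, 3 were lower past the thresholds in WT/pMAG (PWP1, LTV1 and the L3 chaperone RRB1), where 6.47% of all genes were called, and 1 each was higher in Δapn1/pAPN1 (RRP7) and Δapn1/pMAG/pAPN1 (DBP8), where 3.59% and 3.75% were. Of 17 genes for subunits and initiation factors of RNA polymerase I and 12 regulators of ribosome genes, none was past them in any strain against wild type by limma, with 1 polymerase gene under an unadjusted p of 0.05 in each of Δapn1/pMAG and Δapn1/pAPN1 and 1 regulator in Δapn1/pAPN1, against 7.41% and 7.11% of all genes in these 2 strains. On the arrays, the medians of the other assembly factors, the exosome and the polymerase list followed the 55 with r = 0.98, 0.90 and 0.89, and that of the ribosomal proteins with r = 0.43 and rho = 0.17 (n = 18 arrays each). For the ribosomal proteins r was −0.64 on the higher side of the small RNA signal (n = 7) and 0.85 on the lower side (n = 11).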

How the data were processed

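RNA of 6 strains, grown in triplicate, had been labelled and hybridized to 1 array per culture. The authors processed the scanned images with RMA (background correction, quantile normalization and summary of probes; version not given in the sources used here), and the deposited table holds log2 signals for 9335 probe sets, between 0.07 and 13.02, with array medians of 1.63 to 1.72. RMA makes arrays alike in distribution, so a change of all genes cannot be seen. Control probe sets (60), those with several gene names (328) and those the annotation used here does not name (2443) did not enter.

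lmFit and eBayes of limma 3.58.1 in R 4.3.3 were fitted to 6504 probe sets and 18 arrays with 1 mean per strain and 12 residual degrees of freedom, after a test on simulated data. Tests were two-sided, with Benjamini-Hochberg adjustment over these probe sets. A gene was called at the thresholds of the methods, which are unadjusted, and adjusted p is given beside it. Counts use the brightest probe set of each gene. Set tests were not run.

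The members and lists were chosen with earlier results of these data known. Genes named are the 6 with the smallest F p, up to 4 called each way per comparison (with none, the 2 with the smallest p), the brightest of each role, those whose probe sets disagree, and the 3 most and 3 least like the other factors; others were named after their values were seen. Same-numbered arrays of wild type and Δapn1 deviated together (r = 0.37, 0.33 and 0.37), and the labels give no pairs. For the other strains this r ran from −0.33 to 0.21. In both wild type and Δapn1, replicate 1 was on the lower side of the small RNA signal and replicates 2 and 3 on the higher. Whether the r reflects pairs or this split was not tested. The main fit took no arrays as pairs, and the replicate number entered only as a block in alternatives. Alternatives were the same contrasts without moderation of the variance (the methods' ANOVA), only the strains compared in the fit, a block for replicate number, a second quantile normalization, centring on medians, leaving out the dimmest 0.25 of probe sets, array weights, the split of small RNA signal at its largest gap as a block, the mean of a gene's probe sets, and leaving out each array or replicates 1 of Δapn1/pMAG and Δapn1/pMAG/pAPN1 together. The split at the second largest gap (7 and 11 arrays) and the block in wild type and Δapn1 alone were added after seeing the data. The number of arrays, 3 per strain, limits the precision.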

Additional observations from a re-analysis of the deposited data

How the results depend on the processing

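No factor passed the F test at an adjusted p of 0.05 under any alternative. The medians of the 55 factors moved by less than the spread between arrays of a strain in all 146 alternatives, and 10 changed sign. That spread (0.30) was larger than any of the medians in the main fit (−0.03 to 0.17), so a median could change sign within it. Leaving out an array of neither strain compared could not move a median. The count therefore does not show that the medians were stable. The named factors kept their side of the thresholds in 286 of 320 alternatives, lost it in 27 and gained it in 3; in 4 a difference in WT/pMAG, not past the thresholds, changed sign. With each array left out, that of UTP22 ran from −0.41 to 0.0098 (positive without replicate 2 of WT/pMAG or replicate 1 of wild type) and that of NOP58 from −0.27 to 0.037 (positive without replicate 3 of WT/pMAG or replicate 1 of wild type).

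Counts past the thresholds were less stable. With the replicate number as a block they were 2 in WT/pMAG and 2 in Δapn1/pMAG/pAPN1 (1 each without), where 6.38% and 3.55% of all genes were called. With the block fitted on wild type and Δapn1 alone the count was 1 in Δapn1 (0.583% of all genes called). In the fit of these strains without the block it was also 1 (0.336%). The block changed no other count. With array weights they were 3 in WT/pMAG, 6 in Δapn1/pMAG, 9 in Δapn1/pMAG/pAPN1 and 2 for the mean pMAG effect, where 7.36%, 7.36%, 6.98% and 4.81% of all genes were called. The small RNA split at the largest gap sets only replicate 1 of Δapn1/pMAG apart, so it equals leaving that array out. It gave 6 in Δapn1/pMAG and 2 in Δapn1/pMAG/pAPN1, where 5.94% and 4.4% of all genes were called. The split at the second largest gap gave 0 in Δapn1/pAPN1 and 0 in Δapn1/pMAG/pAPN1, where 2.67% and 2.37% were. Quantile normalization again gave 2 in Δapn1/pMAG/pAPN1 (3.61% of all genes called), and the methods' test 0 for the mean pMAG effect (3.38%). Without replicates 1 of Δapn1/pMAG and Δapn1/pMAG/pAPN1 there were 7 in Δapn1/pMAG, 0 in Δapn1/pMAG/pAPN1 and 0 for the mean pMAG effect. In these fits 5.92%, 4.46% and 3.75% of all genes were called. With each array left out in turn, counts ranged from 1 to 5 in WT/pMAG, 0 to 1 in Δapn1, 0 to 6 in Δapn1/pMAG, 1 to 3 in Δapn1/pAPN1, 0 to 7 in Δapn1/pMAG/pAPN1 and 0 to 1 for the mean pMAG effect. Over the same fits the share of all genes called ranged from 4.97% to 7.99%, 0.318% to 0.743%, 2.85% to 5.94%, 3.08% to 4.83%, 2.3% to 7.07% and 3.31% to 4.4% in that order. The causes were not tested. Signals near the array median are close to background, which limits the 9 dim factors and the low NOP56 values of WT/pMAG most.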
